A study of Mus musculus with 18 samples.

Results

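A set of 10 genes of innate immune sensing is described here, chosen by symbol. The set holds 10 of the 19780 genes in the table of LSK (Lin-Sca-1+c-Kit+ cells, the bone marrow compartment of stem and early progenitor cells) and 10 of the 18428 genes in the table of common myeloid progenitors (CMPs). Its members are the surface receptors Tlr1, Tlr2, Tlr6 and Tlr4, the nucleic acid receptors Tlr3, Tlr7, Tlr9 and Tlr13, the adaptor Myd88 and the trafficking chaperone Unc93b1. RNA sequencing was performed on cells sorted from the bone marrow of female mice. NZBW/F1 mice are first-generation hybrids of the NZB and NZW strains in which a lupus-like disease arises without treatment. The comparisons asked how these genes differed between stages of disease, between strains and with age in the controls.

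The F1-P group held prediseased NZBW/F1 mice aged 12 weeks and the F1-L group held NZBW/F1 mice with overt lupus, defined by proteinuria, aged 28 to 36 weeks. The B6-Y and B6-O groups were C57BL/6 mice of the same ages, 12 weeks and 28 to 36 weeks. LSK were profiled in 3 samples of each of the 4 groups, and CMPs in 3 samples of F1-P and 3 of F1-L. No mouse carried a transgene or received a treatment in these groups. Disease and age changed together from F1-P to F1-L and cannot be told apart within the strain. Nothing in the labels says whether a sample came from 1 mouse or from a pool, and p-values therefore measure only the spread between these samples. No C57BL/6 CMPs were analysed here.

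Toll-like receptors are membrane proteins that bind conserved microbial molecules through leucine-rich repeats and pass the signal on through a cytoplasmic TIR domain. Tlr2 pairs with Tlr1 or Tlr6 to sense bacterial lipopeptides, and Tlr4 senses lipopolysaccharide at the cell surface. Tlr3 (double-stranded RNA), Tlr7 (single-stranded RNA), Tlr9 (unmethylated CpG DNA) and Tlr13 (bacterial ribosomal RNA) signal from endosomes, which they reach with the help of Unc93b1. All except Tlr3 signal through Myd88, and overactive Tlr7 signalling is a known driver of lupus in mice. Haematopoietic stem and progenitor cells are known to carry several of these receptors and to respond to their ligands.

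The libraries held 23772252 to 28493747 reads for LSK and 20001328 to 24761060 for CMPs. All 8 genes of the LSK gate list were present in every LSK sample. Ly6a, which encodes Sca-1, was at 293 to 879 CPM (read counts relative to a scaled library size) in NZBW/F1 LSK and at 35.5 to 113 CPM in C57BL/6 LSK. Most other genes of the list went the other way. In F1-P against B6-Y, 6 of the 8 were lower without overlap and 1, Ly6a, was higher. In F1-L against B6-O, 4 were lower without overlap and 1, again Ly6a, was higher. Without Ly6a the list summed to 1021 to 1450 CPM in F1-P and 2127 to 2632 CPM in B6-Y. In CMPs, Ly6a was at 1.14 to 6.70 CPM, while Kit, Cd34 and Mpo were at 154 CPM or more in each sample. Markers of mature cells were present in both populations although the gates removed CD11b+, Gr-1+, B220+ and CD16/32+ cells. The summed level of 8 plasma cell markers was 9742 to 37905 CPM in NZBW/F1 LSK and 253 to 2529 CPM in C57BL/6 LSK, and immunoglobulin genes took 16.8% to 36.6% and 0.301% to 4.76% of reads, respectively. Summed levels of 11 neutrophil markers ran from 301 to 12373 CPM in LSK and from 64.2 to 8442 CPM in CMPs, with large differences inside groups. In bulk RNA, a change in the number of cells of a type and a change in RNA per cell cannot be told apart.

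Promoter sequences from RefSeq (GRCm38.p6, the assembly of the mm10 alignments) were found for 7 of the 10 genes. Sequence is shown for Tlr13, Tlr9 and Tlr6 because the comparisons below turn on these genes, and it is cut where the GENCODE M21 or RefSeq transcript begins. Capitals mark GAGGAA, the letters of a core recognised by the myeloid and lymphoid factor PU.1.
Tlr13, chrX:106143025-106143203, plus strand: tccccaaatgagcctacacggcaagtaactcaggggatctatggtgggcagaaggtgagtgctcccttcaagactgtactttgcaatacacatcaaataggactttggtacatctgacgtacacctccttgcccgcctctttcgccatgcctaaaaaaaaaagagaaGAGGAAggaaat
Tlr9, chr9:106222348-106222597, plus strand: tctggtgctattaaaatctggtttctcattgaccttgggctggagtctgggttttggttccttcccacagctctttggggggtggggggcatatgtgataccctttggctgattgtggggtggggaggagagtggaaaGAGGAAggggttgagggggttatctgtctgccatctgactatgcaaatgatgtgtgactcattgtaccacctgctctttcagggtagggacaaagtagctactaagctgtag
Tlr6, chr5:64960098-64960298, minus strand: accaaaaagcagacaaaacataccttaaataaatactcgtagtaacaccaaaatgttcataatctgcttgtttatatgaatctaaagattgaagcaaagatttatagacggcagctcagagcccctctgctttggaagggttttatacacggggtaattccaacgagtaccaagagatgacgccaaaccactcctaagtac
Both strands of the 250 bases before each RefSeq start were searched for GAGGAA. It was found at Tlr1, Tlr9 and Tlr13, so at 3 of the 7 genes, and in 23.3% of all 32851 promoters. The count is by gene, and Tlr1 and Tlr6 have more than 1 promoter each. The share is by promoter, so the count and the share are not like for like. The matches describe letters only.

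Tlr1 (chr5:64924679-64933563) and Tlr6 (chr5:64952031-64960097) are neighbours and close relatives. Of all windows of 75 bases, the read length, in their transcripts, 11.2% of Tlr1 and 9.25% of Tlr6 occurred in the other gene, so part of their signal could be split or lost in counting. Myd88 shared 7.69% of its windows with the adjoining gene Acaa1a and Tlr3 shared 1.85% with Gm45542, whereas Tlr2, Tlr4, Tlr7, Tlr9, Tlr13 and Unc93b1 shared none. NZB and NZW reads were aligned to a C57BL/6 genome, and the part of sequence differences in any strain difference was not tested. Tlr7 (chrX:167304929-167330558) and Tlr13 (chrX:106143204-106160493) are both on the X chromosome, and Tlr9 (chr9:106222598-106226883) and Myd88 (chr9:119335934-119341411) on chromosome 9.

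Unc93b1 was the most abundant of the 10 genes in every group when levels were set per length of exon. Its mean level was 48.8 to 79.4 CPM per kb in LSK, and 37.4 CPM per kb in F1-P and 23.7 CPM per kb in F1-L CMPs, where it overlapped with Myd88. Myd88 came second in every group, at 11.3 to 15.8 CPM per kb over the 6 groups. Among the receptors, Tlr7 led in B6-Y LSK with 6.67 CPM per kb, while Tlr2 led in the other 5 groups with 2.61 to 10.3 CPM per kb. Tlr2 and Tlr7 overlapped in B6-O and F1-P samples but were apart in B6-Y. Tlr4 followed at 1.70 to 3.37 CPM per kb in LSK. Tlr1 and Tlr3 were the lowest in LSK except in F1-P, where Tlr9 and Tlr13 lay between them, and most neighbours in the lower part of the order overlapped between samples. Tlr3 rested on 1 to 17 reads per sample in CMPs and was too low there to test.

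**Figure D1:**
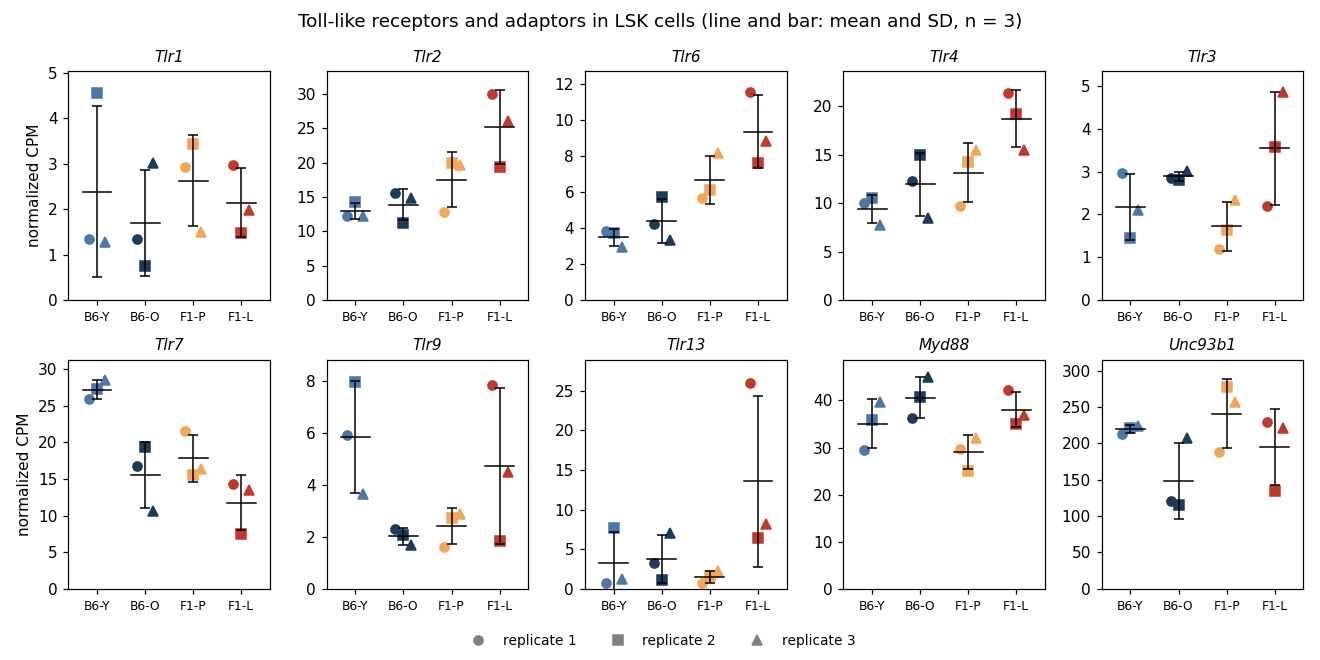
Normalized CPM of the 10 genes in each LSK sample, with one panel per gene, a linear axis from 0 and symbols by replicate number; lines and bars give the mean and SD of 3 samples (bars reaching below 0 are cut). Tlr6 is highest in F1-L and lowest in B6-Y, Tlr7 is highest in B6-Y, and 1 F1-L sample lies far above the rest for Tlr13.

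The first comparison set overt lupus against the prediseased stage in NZBW/F1 LSK. None of the 10 genes passed limma's test, which on log2(CPM + 1) asked for more than a 1.5-fold change together with an adjusted p no higher than 0.05. Among all 14332 genes tested, limma called 4 (0.0279%). Tlr13 had the largest difference among the 10, with a log2 fold change of 2.34 (SE 0.49, n = 3 per group, limma adjusted p = 0.172), and its groups did not overlap. It stood at 26.0, 6.44 and 8.22 CPM in the F1-L replicates 1, 2 and 3, and at 0.742, 1.58 and 2.19 CPM in the F1-P replicates. F1-L replicate 1 was the highest, and the lowest F1-L sample was still above the highest F1-P sample.

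Other tools differed on Tlr13. edgeR's likelihood ratio test, the study's own method, called it with an adjusted p of 0.000434, as did DESeq2 (adjusted p = 1.71e-05), whereas edgeR's quasi-likelihood test did not. These tools called 657 (4.58%), 734 (5.12%) and 3 (0.0209%) of all genes, respectively. Without F1-L replicate 1 the log2 fold change of Tlr13 was 1.77. Neutrophil markers were also higher in F1-L, 10 of the 11 without overlap. Their sum was 12373, 4905 and 1983 CPM in the F1-L replicates and 301, 526 and 1281 CPM in the F1-P replicates. F1-L replicates 2 and 3 stood in the reverse order for Tlr13, and none of the 11 was at 0 in any LSK sample. Of 12 monocyte and macrophage markers, 6 were higher in F1-L without overlap and none was lower. Their sums overlapped at 413 to 653 CPM in F1-L and 412 to 803 CPM in F1-P. The part of neutrophil, monocyte or macrophage RNA in the Tlr13 difference was not tested. In C57BL/6 LSK, Tlr13 was at 7.70 CPM beside 5441 CPM of neutrophil markers in B6-Y replicate 2, and at 6.99 CPM beside 10719 CPM in B6-O replicate 3, the highest samples of their groups in both measures.

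**Figure D2:**
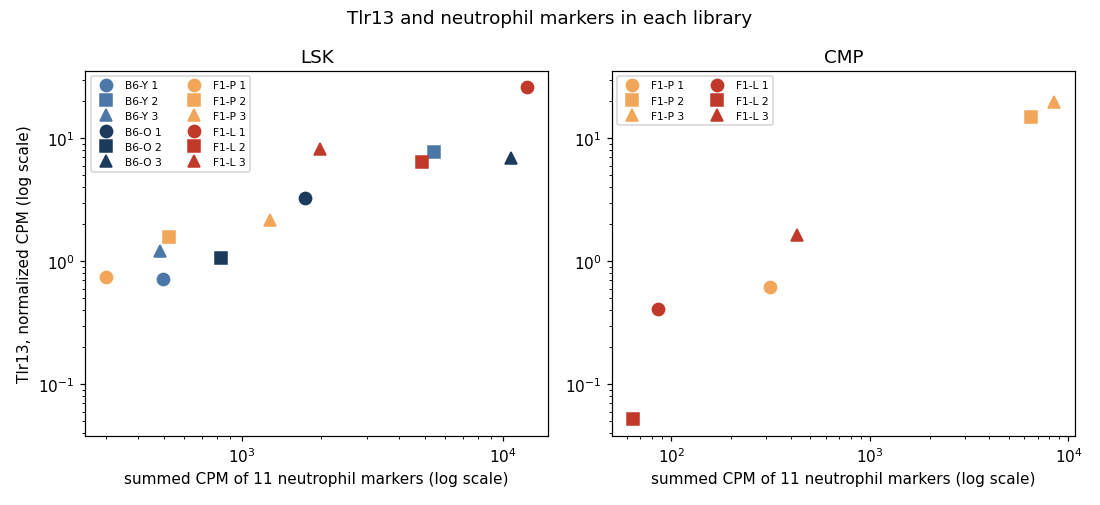
Tlr13 in normalized CPM against the summed CPM of 11 neutrophil markers, both on log axes, in each LSK (left) and CMP (right) sample, with colour for the group and symbol for the replicate. In LSK, F1-L replicate 1 holds both maxima, and in CMPs F1-P replicates 2 and 3 stand apart from the other 4 samples on both axes.

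Of the surface receptors, Tlr2 was at 30.0, 19.4 and 26.1 CPM in F1-L and at 12.9, 20.0 and 19.7 CPM in F1-P LSK, and the groups overlapped. Its log2 fold change was 0.50 (SE 0.22, limma adjusted p = 0.409). Tlr4 (0.49, SE 0.21) and Tlr6 (0.43, SE 0.20) had positive values of like size, and Tlr1 was at -0.19 (SE 0.28), all with overlapping groups. In all, 3 of the 10 genes, Tlr3, Tlr13 and Myd88, had an unadjusted p below 0.05, beside 1830 of all genes (12.8%).

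The nucleic acid receptors did not move together in F1-L LSK. Tlr7 was at 14.3, 7.47 and 13.5 CPM in F1-L and at 21.5, 15.5 and 16.4 CPM in F1-P, so every F1-L sample lay below every F1-P sample. The log2 fold change was -0.59 (SE 0.26, limma adjusted p = 0.398). Tlr9 spread widely, at 7.85, 1.83 and 4.49 CPM in F1-L against 1.61, 2.74 and 2.87 CPM in F1-P. Tlr3 stayed low at 2.20 to 4.85 CPM in F1-L and 1.20 to 2.33 CPM in F1-P.

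Myd88, the common adaptor, was at 42.2, 35.0 and 37.0 CPM in F1-L and at 29.8, 25.1 and 32.1 CPM in F1-P LSK. The groups did not overlap, and the log2 fold change was 0.38 (SE 0.13, limma adjusted p = 0.301). Unc93b1 overlapped, with a log2 fold change of -0.32 (SE 0.24). Thus 2 of the 10 genes, Tlr13 and Myd88, were higher without overlap, beside 10.4% of all genes, and 1, Tlr7, was lower without overlap, beside 7.29% of all genes. For a single gene, 3 samples against 3 cannot give an exact permutation p below 0.1.

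The second comparison set F1-P against B6-Y LSK, that is, strain at 12 weeks of age before disease. Tlr6 rose and Tlr7 fell in F1-P by limma, so 2 of the 10 genes were called beside 2331 of 14380 genes (16.2%). Tlr6, the partner of Tlr2 for diacylated lipopeptides, was at 5.69, 6.13 and 8.16 CPM in F1-P and at 3.81, 3.71 and 2.92 CPM in B6-Y. The groups were apart, and the log2 fold change was 0.76 (SE 0.20, n = 3 per group, limma adjusted p = 0.0344). Tlr7 was at 25.9, 27.3 and 28.5 CPM in B6-Y, against the 15.5 to 21.5 CPM of F1-P. The log2 fold change was -0.60 (SE 0.17, limma adjusted p = 0.0443).

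Both calls were close to the threshold. The Tlr6 call was lost on leaving out F1-P replicate 2 or 3 or B6-Y replicate 1, 2 or 3 (limma adjusted p = 0.112, 0.135, 0.0883, 0.0604 and 0.0724, respectively), and the Tlr7 call on leaving out any of the same samples (0.197, 0.161, 0.120, 0.0954 and 0.0825). The summed level of plasma cell markers was 14635 to 37905 CPM in F1-P and 788 to 1987 CPM in B6-Y, and that of 6 T and NK cell markers was 185 to 238 and 42.8 to 72.0 CPM. The sum of the 12 monocyte and macrophage markers was 412 to 803 and 162 to 241 CPM, a gap carried by Ly6c2 (330 to 663 and 36.2 to 93.1 CPM). Without Ly6c2 that sum was 82.1 to 139 CPM in F1-P and 104 to 148 CPM in B6-Y, so the groups overlapped. Of the 6 plasmacytoid dendritic cell markers, 4 were lower in F1-P without overlap and 1, Ccr9, was higher. Their sum was 83.4 to 117 CPM in F1-P and 102 to 137 CPM in B6-Y, and without Ccr9 32.6 to 38.3 and 86.6 to 102 CPM. B cell markers overlapped, at 87.9 to 223 and 96.4 to 265 CPM. None of these markers was at 0 in any LSK sample. The part of such cells in the Tlr6 and Tlr7 differences, and in that of Tlr9 given next, was not tested.

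Tlr9 was also lower in F1-P LSK, at 1.61 to 2.87 CPM against 5.92, 7.97 and 3.65 CPM in B6-Y, with no overlap. Its log2 fold change was -0.98 (SE 0.28), just outside limma's threshold (adjusted p = 0.0510) and inside that of the likelihood ratio test (adjusted p = 0.0176) and DESeq2 (0.0137). Without B6-Y replicate 3 limma called it as well (-1.23, adjusted p = 0.0278), beside 13.7% of all genes in that fit. Tlr6, Tlr7 and Tlr9 were the 3 genes of the set with an unadjusted p below 0.05, beside 31.3% of all genes. Samples did not overlap for 1 of the 10 in the higher direction, beside 17.4% of all genes, and for 2 in the lower, beside 18.1%.

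The remaining genes gave smaller values in that comparison. Log2 fold changes were 0.38 for Tlr2, 0.43 for Tlr4, 0.19 for Tlr1, -0.22 for Tlr3, -0.40 for Tlr13, -0.26 for Myd88 and 0.11 for Unc93b1, and all 7 had overlapping groups. The quasi-likelihood test called Tlr6 and Tlr7, the likelihood ratio test Tlr6, Tlr7 and Tlr9, and DESeq2 Tlr6 and Tlr9. Their shares of all genes were 15.9%, 19.1% and 19.6%.

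The third comparison set F1-L against B6-O LSK, strain at 28 to 36 weeks with disease in F1-L, and it shares no sample with the second. Tlr6 was again called higher by limma, at 11.6, 7.63 and 8.85 CPM in F1-L against 4.20, 5.72 and 3.31 CPM in B6-O. The log2 fold change was 0.94 (SE 0.24, limma adjusted p = 0.0498), and the groups were apart. It was the 1 gene called of the 10, beside 1667 of 14381 genes (11.6%). The call was lost on leaving out any 1 of the 6 samples: the limma adjusted p was 0.180, 0.0981 and 0.167 without F1-L replicate 1, 2 and 3, and 0.140, 0.0639 and 0.0572 without B6-O replicate 1, 2 and 3.

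Tlr2 and Tlr4 lay higher in F1-L than in B6-O without overlap but outside limma's threshold. Tlr2 was at 15.6, 11.3 and 14.9 CPM in B6-O, all below the lowest F1-L sample, with a log2 fold change of 0.80 (SE 0.22, limma adjusted p = 0.0581). Tlr4 was at 21.3, 19.2 and 15.5 CPM in F1-L and at 12.3, 15.0 and 8.52 CPM in B6-O, with a log2 fold change of 0.63 (SE 0.24, limma adjusted p = 0.144). Without B6-O replicate 3, which had 10719 CPM of neutrophil markers, Tlr2 was the 1 gene of the 10 called (0.85, limma adjusted p = 0.0475), beside 2285 of 14116 genes (16.2%). Tlr2, Tlr4 and Tlr6 made 3 of 10 genes higher without overlap, beside 17.5% of all genes, and none was lower without overlap, beside 20.0%.

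Tlr13 had a log2 fold change of 1.57 (SE 0.62, limma adjusted p = 0.158) and overlapping groups, since B6-O replicate 3 was at 6.99 CPM. Tlr2, Tlr4, Tlr6 and Tlr13 had an unadjusted p below 0.05, beside 27.5% of all genes. The quasi-likelihood test called none of the 10 and 10.8% of all genes, the likelihood ratio test called Tlr2 and Tlr6 and 15.2%, and DESeq2 called Tlr2, Tlr6 and Tlr13 and 15.9%. Monocyte and macrophage markers summed to 413 to 653 CPM in F1-L and 71.7 to 260 CPM in B6-O, and 8 of the 12 were higher in F1-L without overlap. Ly6c2 had the largest difference in CPM (234 to 405 and 15.7 to 122 CPM), and without it the sums overlapped at 112 to 330 and 56.0 to 138 CPM. Plasma cell markers summed to 9742 to 13036 and 253 to 2529 CPM, and T and NK cell markers to 155 to 345 and 61.0 to 97.4 CPM. The part of such cells was not tested.

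**Figure D3:**
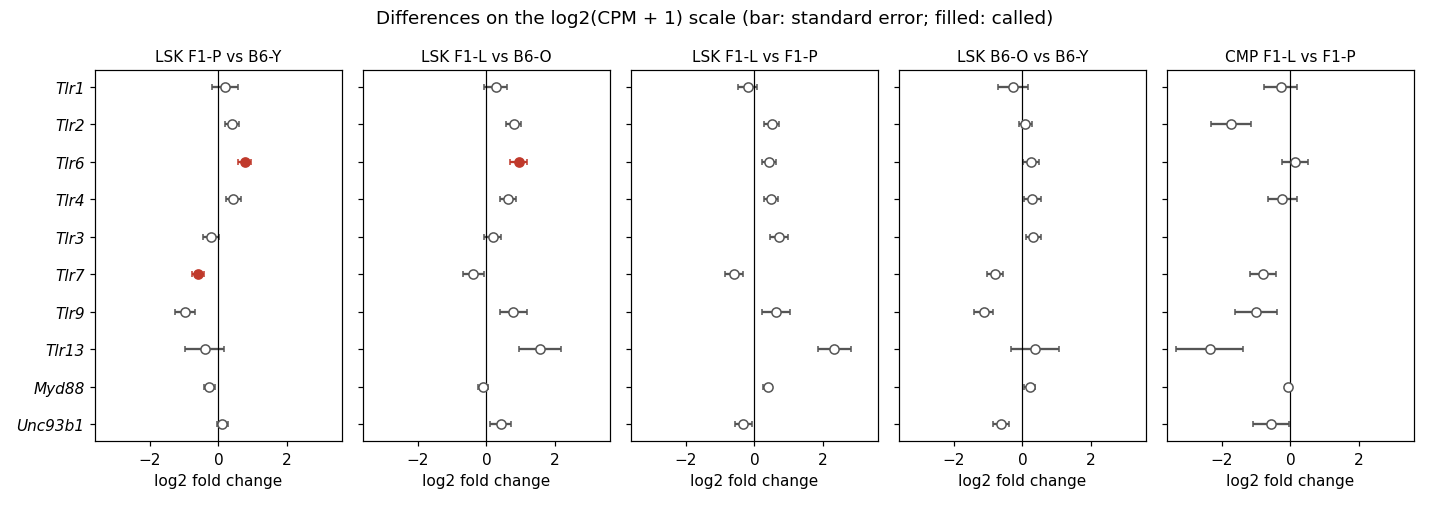
Log2 fold changes on the log2(CPM + 1) scale with their standard errors for the 10 genes in 5 comparisons, filled red where limma called the gene. Tlr6 is filled in both strain comparisons and Tlr7 in F1-P vs B6-Y, and no gene is filled in the stage and age comparisons; Tlr3 was not tested in CMPs.

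Age in C57BL/6 LSK gave the reference for the stage comparison. No gene was called by limma in B6-O against B6-Y (0 of 14005, 0.0%), and none by the quasi-likelihood test (0.0%), while the likelihood ratio test called 0.814% and DESeq2 1.48% of all genes. Tlr7, Tlr9 and Unc93b1, 3 of the 10 genes, had an unadjusted p below 0.05, beside 6.62% of all genes. Their B6-O samples all lay below the B6-Y samples, beside 5.57% in that direction. The other endosomal receptors, Tlr3 (0.32, SE 0.23) and Tlr13 (0.37, SE 0.70), had positive log2 fold changes and overlapping groups. Values were -0.28 for Tlr1, 0.09 for Tlr2, 0.29 for Tlr4, 0.25 for Tlr6 and 0.21 for Myd88, also with overlap. None of the 10 was higher without overlap, beside 5.69%.

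Tlr7 was at 16.8, 19.4 and 10.6 CPM in B6-O, with a log2 fold change of -0.81 (SE 0.23, limma adjusted p = 0.456). Tlr9 was at 2.30, 2.08 and 1.67 CPM in B6-O, with a log2 fold change of -1.14 (SE 0.28, limma adjusted p = 0.348). DESeq2 called Tlr9 (adjusted p = 0.0167). Unc93b1 was at 121, 115 and 208 CPM in B6-O and at 213, 221 and 224 CPM in B6-Y, with a log2 fold change of -0.62 (SE 0.24, limma adjusted p = 0.655). It was called without B6-O replicate 3 (-0.895, limma adjusted p = 0.0482), in a fit that called 48 of 13705 genes (0.35%).

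Markers of cells that carry these receptors differed in the same direction. The sum of 8 B cell markers was 38.9 to 62.9 CPM in B6-O and 96.4 to 265 CPM in B6-Y, and that of 6 plasmacytoid dendritic cell markers was 35.7 to 93.9 and 102 to 137 CPM. No marker of either list was at 0 in any LSK sample, and their part in the 3 differences was not tested. Tlr7 lay lower without overlap at the later age in both strains, in comparisons that share no sample. Neither difference was called (limma adjusted p = 0.398 in NZBW/F1 and 0.456 in C57BL/6). Of all genes, 7.29% were lower without overlap in NZBW/F1 and 5.57% in C57BL/6. The share lower in both was not counted. In NZBW/F1 the same lists overlapped, at 52.3 to 145 CPM in F1-L and 87.9 to 223 CPM in F1-P for B cells, and at 34.2 to 130 and 83.4 to 117 CPM for plasmacytoid dendritic cells.

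Whether the stage difference itself differed between the strains was tested in a fit of all 12 LSK samples. limma called 0 of 15084 genes (0.0%), and so none of the 10, and the quasi-likelihood test called none (0.0%). The likelihood ratio test called 0.0663% and DESeq2 0.192% of all genes, none of them among the 10. In limma, Tlr9 alone reached an unadjusted p below 0.05, beside 3.92% of all genes, and in the other 3 tools Tlr13 did so too. Its difference of differences was 1.76 (SE 0.52, limma adjusted p = 0.976), from log2 fold changes of 0.62 in NZBW/F1 and -1.14 in C57BL/6 mice, neither of them called. For Tlr13 it was 1.97 (SE 0.95, limma adjusted p = 0.976) and for Tlr7 0.21 (SE 0.37).

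In CMPs, F1-L was compared with F1-P only. None of the 9 genes tested was called by limma, which called 1 of 12926 genes (0.00774%). The quasi-likelihood test called the same share (0.00774%) and none of the 9, and the likelihood ratio test called 2.38% and none of the 9. DESeq2 called 2.72%, among them Tlr2 (adjusted p = 0.0221) and Tlr13 (0.0287), both lower in F1-L. In limma, Tlr2 alone had an unadjusted p below 0.05, beside 9.8% of all genes, and no gene of the set was apart between groups, beside 9.45% in the higher and 6.57% in the lower direction.

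Tlr2 was at 11.0, 43.6 and 38.1 CPM in F1-P CMPs and at 8.46, 3.82 and 11.3 CPM in F1-L CMPs. The F1-P samples were split, since replicate 1 fell within the F1-L range and replicates 2 and 3 were well above it. The log2 fold change was -1.74 (SE 0.58, limma adjusted p = 0.455). Tlr13 was at 0.624, 14.9 and 19.8 CPM in F1-P and at 0.409, 0.052 and 1.64 CPM in F1-L, with the same split. The log2 fold change was -2.37 (SE 0.98, limma adjusted p = 0.509).

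The same F1-P samples stood apart in neutrophil markers, which summed to 315, 6453 and 8442 CPM in F1-P and to 85.8, 64.2 and 431 CPM in F1-L, with none of the 11 markers at 0. B cell markers summed to 28.5, 122 and 138 CPM in F1-P and to 4.80 to 12.3 CPM in F1-L, also with none at 0. Without F1-P replicate 1, the sample with few neutrophil markers, limma called 3 of the genes lower in F1-L: Tlr2 (-2.34, adjusted p = 0.0372), Tlr9 (-1.73, 0.0269) and Tlr13 (-3.53, 0.0149). The same fit called 434 of 12774 genes (3.4%), of which 396 were lower in F1-L. The part of neutrophil and B cell RNA in these values was not tested.

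**Figure D4:**
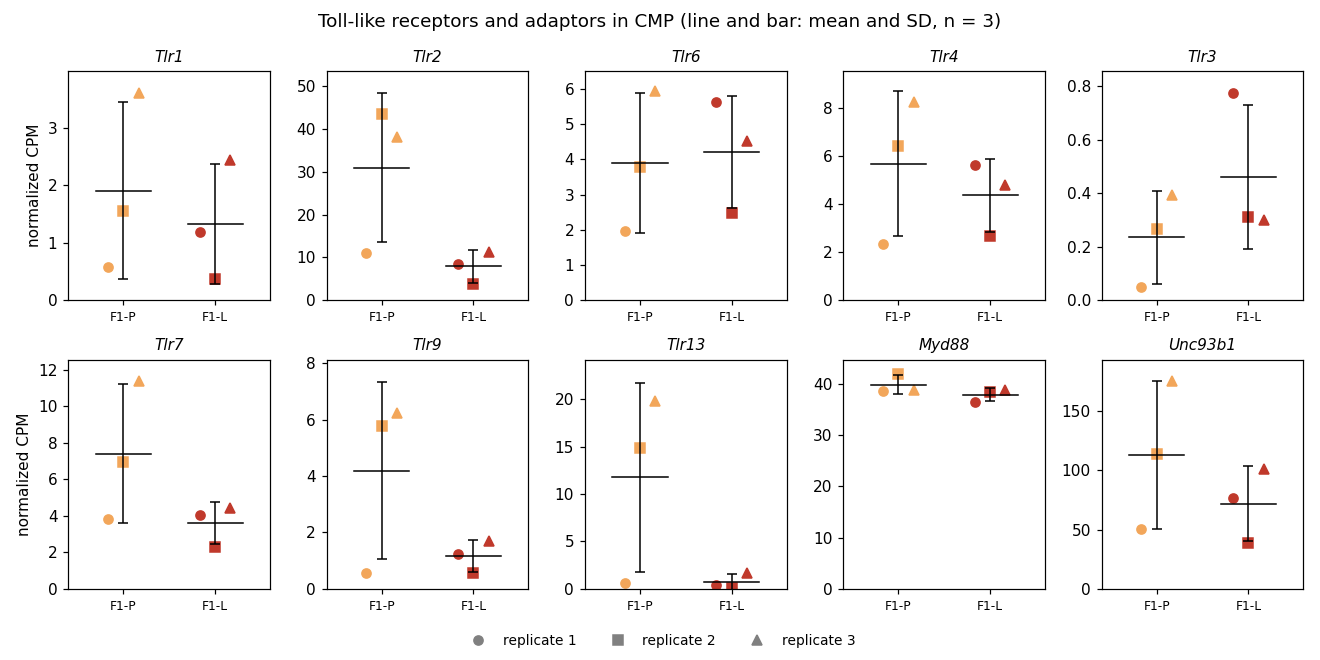
Normalized CPM of the 10 genes in each CMP sample of F1-P and F1-L, on linear axes from 0 with symbols by replicate; lines and bars give the mean and SD of 3 samples (bars reaching below 0 are cut). F1-P replicates 2 and 3 hold the highest values of Tlr2, Tlr4, Tlr7, Tlr9, Tlr13 and Unc93b1, and Myd88 differs little between samples.

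Both nucleic acid and surface receptors rose from replicate 1 to replicate 3 of F1-P in CMPs, while Tlr2 and Myd88 were highest in replicate 2. Tlr9 was at 0.576, 5.78 and 6.23 CPM in F1-P and at 1.23, 0.568 and 1.69 CPM in F1-L, and Unc93b1 at 50.6, 113 and 176 CPM and at 76.5, 38.5 and 101 CPM. Tlr7 had a log2 fold change of -0.81 (SE 0.38, limma adjusted p = 0.552). Myd88 was the steadiest of the 10, at 38.7 to 41.9 CPM in F1-P and 36.4 to 38.9 CPM in F1-L, with a log2 fold change of -0.07 (SE 0.09). Tlr1, Tlr4 and Tlr6 were at -0.28, -0.23 and 0.12 with standard errors of 0.38 to 0.48.

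The 2 populations were normalized apart, so their levels are set side by side without a test. In F1-P, Tlr4 had a mean of 13.2 CPM in LSK and 5.67 CPM in CMPs, and Tlr7 one of 17.8 and 7.40 CPM. In F1-L, Tlr7 had a mean of 11.7 CPM in LSK and 3.58 CPM in CMPs, and Tlr4 one of 18.7 and 4.37 CPM. Myd88 was at 29.0 and 39.8 CPM in F1-P and at 38.1 and 37.9 CPM in F1-L. Tlr13 was at 6.44 to 26.0 CPM in LSK and 0.052 to 1.64 CPM in CMPs of F1-L, and at 0.742 to 2.19 CPM in LSK and 0.624 to 19.8 CPM in CMPs of F1-P, and the difference between the populations was not tested.

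Other genes of the pathway were examined as 54 genes in 6 lists. In F1-P against B6-Y LSK, limma called 8 of the 50 tested, close to the share of all genes (16.2%). Of 12 chaperone, trafficking and protease genes, 3 rose: Ctss (cathepsin S, 2.22, adjusted p = 0.0048), Hsp90b1 (gp96, the folding chaperone of Toll-like receptors, 2.08, 0.00393) and Lgmn (legumain, 1.17, 0.00367). Hsp90b1 was at 909, 2087 and 1614 CPM in F1-P and at 277 to 411 CPM in B6-Y, and gp96 is also abundant in plasma cells, whose markers were higher in the same samples. The adaptor Ticam1 (TRIF) rose by 0.70 (limma adjusted p = 0.0458).

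Of the 6 co-receptor genes, 2 fell in F1-P, Lbp (lipopolysaccharide-binding protein, -1.78, limma adjusted p = 0.00381) and Cd180 (RP105, a Toll-like receptor homologue, -1.13, 0.00701). Tlr12 fell by 0.67 (limma adjusted p = 0.0302) and the negative regulator Tnip3 fell by 1.14 (0.0131). In this comparison limma called 16.2% of all genes, in either direction. None of the 13 downstream kinases and interferon regulatory factors was called by limma, and 2 of them had an unadjusted p below 0.05, beside 31.3% of all genes. Irf7 had the largest value among those without overlap, at -0.71 (limma adjusted p = 0.0587), and the likelihood ratio test and DESeq2 called it. Of the 50 pathway genes, the quasi-likelihood test called 9, the likelihood ratio test 12 and DESeq2 16, beside 15.9%, 19.1% and 19.6% of all genes.

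In F1-L against B6-O LSK, limma called 6 of 52, again close to the share of all genes (11.6%). All 6 were higher, as were 1128 of the 1667 genes called among all genes. The 6 were Cd14 (the lipopolysaccharide co-receptor, 3.20, limma adjusted p = 0.00973), Ctss (2.10, 0.0226), Tlr8 (1.95, 0.0293), Hsp90b1 (1.54, 0.032), Tirap (the bridging adaptor of Tlr2 and Tlr4, 1.29, 0.0113) and Lgmn (1.20, 0.0463). Cd14 was at 52.4, 18.6 and 51.2 CPM in F1-L against 2.58, 1.52 and 6.79 CPM in B6-O. Tlr8, another sensor of single-stranded RNA, was at 11.4, 3.42 and 3.19 CPM in F1-L and at 0.253 to 0.869 CPM in B6-O. It passed the filter through F1-L alone, so its direction was fixed by the filter. Tirap was at 34.7, 23.6 and 23.9 CPM against 8.32 to 11.7 CPM. The monocyte, neutrophil and plasma cell marker sums given above apply to these values too, and their part was not tested. Outside the threshold, Chuk (an IkB kinase) had a value of 0.43 and Tnip3 one of -0.74. The quasi-likelihood test called 6 of the 52, the likelihood ratio test 8 and DESeq2 11, beside 10.8%, 15.2% and 15.9% of all genes. Each of these tools called 1 gene lower, Cd180, and the quasi-likelihood test did not call Lgmn.

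Between the stages, limma called none of 53 pathway genes in NZBW/F1 LSK, with 8 at an unadjusted p below 0.05, beside 12.8% of all genes. The likelihood ratio test and DESeq2 called 5, all higher in F1-L, namely Tlr5, Tlr8, Cd14, Lbp and Irak3, and the quasi-likelihood test none. Tlr5 (0.292 to 0.777 CPM) and Tlr8 (0.33 to 0.729 CPM) were below 1 CPM in every F1-P sample. They passed the filter through F1-L alone, so their direction was fixed by it. The likelihood ratio test called 4.58% and DESeq2 5.12% of all genes, of which 494 of 657 and 541 of 734 were higher in F1-L. Cd14 had the value 1.82 (SE 0.45, limma adjusted p = 0.196), and its F1-P samples were at 6.06, 10.8 and 14.0 CPM. Irak3 (IRAK-M), an inhibitor of signalling downstream of Myd88, was at 35.8, 53.6 and 32.2 CPM in F1-L and at 14.6, 13.7 and 20.6 CPM in F1-P, a log2 fold change of 1.25 (SE 0.23, limma adjusted p = 0.172). In C57BL/6 mice it was at 35.9, 37.6 and 34.7 CPM in B6-O and at 24.1, 24.0 and 24.7 CPM in B6-Y (0.55, SE 0.14, limma adjusted p = 0.353), so that the groups were apart in both strains. Of all genes, 10.4% were higher without overlap in NZBW/F1 and 5.69% in C57BL/6, and the share higher in both was not counted. The other genes named by the rule for this comparison were Slc15a3 (0.77), Irak4 (0.37) and Map3k7 (-0.19), none of them called.

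With age in C57BL/6 LSK, limma and both edgeR tests called none of 50, while 5 reached an unadjusted p below 0.05 by limma, beside 6.62% of all genes. DESeq2 called Pik3ap1 (BCAP), a signalling adaptor of B cells and Toll-like receptors, which was lower in B6-O. Its limma value was -1.20 (SE 0.33, limma adjusted p = 0.419), and Cd180 (-0.33) and Ikbkb (-0.17) had smaller ones. In CMPs, limma and the quasi-likelihood test called none of 50, while 4 reached an unadjusted p below 0.05 by limma, beside 9.8% of all genes. The likelihood ratio test called Slc15a3 and Tnfaip3, and DESeq2 also Tlr8 and Cd14, all lower in F1-L, as were 274 of 308 and 301 of 351 genes called by these tools. Slc15a3 was at 0.206 to 0.846 CPM in F1-L and passed the filter through F1-P alone, so its direction was fixed by the filter. Tnfaip3 (A20), a brake on NF-kB, was at 302, 557 and 315 CPM in F1-P CMPs and at 67.8, 144 and 133 CPM in F1-L CMPs, with no overlap (-1.77, SE 0.36, limma adjusted p = 0.353). In contrast to Tlr2 and Tlr13, F1-P replicate 1 was also high for Tnfaip3. Ctsb (-0.27) and Tab2 (-0.08) were apart in the same direction with small values.

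List medians were set beside the median of all genes. For the 10 genes the median log2 fold change was 0.46 in F1-L against F1-P LSK (all genes -0.01) and 0.15 in B6-O against B6-Y (0.02). It was -0.05 in F1-P against B6-Y (-0.04) and 0.52 in F1-L against B6-O (-0.03). For the 9 genes tested in CMPs it was -0.58 (0.04). The 4 other Toll-like receptors (Tlr5, Tlr8, Tlr11 and Tlr12) had a median of 0.77 in F1-L against F1-P LSK, and the 6 co-receptors one of 0.49. Tlr5 and Tlr8 passed the filter there through F1-L alone, which fixed their direction, so the median of 0.77 is no evidence of a rise. Chaperones (-0.06), proximal adaptors and kinases (0.00), downstream kinases (-0.05) and negative regulators (-0.08) lay near the median of all genes there.

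For 7 genes with a mean LSK level of at least 5 CPM, the genes with the most similar profile over the 12 LSK samples were sought among 11331 genes by Pearson's r of log2(CPM + 1), as a description. The samples share strain, library composition and depth. Tlr13 was most like Gpr141 (0.986), Slc11a1 (0.985) and C5ar1 (0.98), genes known from neutrophils and macrophages. Tlr2 was most like Cask (0.944), Cd14 (0.941) and C1galt1c1 (0.932). Tlr6 was most like Zmpste24 (0.981), which also ranked second for Tlr4 (0.939) after Pacsin2 (0.95). Tlr7 was most like Satb1 (0.938), a chromatin organiser of lymphoid progenitors, Myd88 most like Mid1ip1 (0.942) and Unc93b1 most like Donson (0.916).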

How the data were processed

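RNA sequencing of 12 LSK and 6 CMP samples was analysed. The authors sequenced single-end reads of 75 bases, aligned them with STAR 2.6 to mm10, counted reads per gene with HTSeq and used edgeR. The deposited values are a signal, counts relative to a library size (CPM) scaled by the authors with edgeR. The design had assumed plain CPM. All values (100.0%, tolerance 0.02 reads) were whole multiples of 1 read, so count tests were run on recovered reads as alternatives. Depth is given in the report, and intervals between samples rest on 3 replicates.

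Samples were grouped by their titles. Genes that reached a CPM of 1 in 3 or more samples were tested by limma 3.58.1 (lmFit, eBayes with trend, two-sided) on log2(CPM + 1), a scale that understates changes of low genes, with Benjamini-Hochberg adjustment over all genes. Called genes changed more than 1.5-fold with an adjusted p no higher than 0.05, the study's thresholds. Each fit held the 6 samples compared, and the difference of differences all 12 LSK samples.

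Alternatives were edgeR 4.0.16, DESeq2 1.42.0 (R 4.3.3), a pseudocount of 0.5, a filter on a mean CPM of 5 or none, other scalings, the replicate number as a block, all 12 LSK samples in one fit and leaving out each sample. The scripts were tested on simulated data. Symbols, positions and exon lengths came from GENCODE M21, which matched 19770 and 18421 genes of the tables. Named pathway genes are those called, up to 4 per list and comparison, or otherwise the gene with the largest difference among those without overlap and with a mean of at least 5 CPM. Genes that alternatives called, the remaining Toll-like receptors and Acaa1a and Gm45542 were named after their values were seen. The members and lists were chosen with earlier results of these data known. Human samples were not analysed here.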

Additional observations from a re-analysis of the deposited data

How the results depend on the processing

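No result on the 10 genes reversed its direction where it was called. Of 961 values of single genes under an alternative, 895 kept their direction and side of the threshold, 28 lost and 19 gained a call, and 19 uncalled values changed sign. In F1-L vs F1-P LSK, limma called 4 genes and none of the 10. Scaling without immunoglobulin genes gave 2 genes, the likelihood ratio test 657, DESeq2 734 and all 12 samples in one fit 26, with 1 of the 10 called by DESeq2 and 1 by the likelihood ratio test. In B6-O vs B6-Y LSK the same alternatives gave 3, 114, 207 and 15 genes instead of 0, and DESeq2 called 1 of the 10. In F1-P vs B6-Y LSK, 1 of the 10 instead of 2 was called with no filter, a mean CPM of at least 5, either other scaling and all 12 samples. In F1-L vs B6-O LSK, 0 of the 10 instead of 1 were called with a pseudocount of 0.5, no filter, a mean CPM of at least 5 (978 instead of 1667 genes) and the quasi-likelihood test. There, 2 were called with scaling without immunoglobulin genes, the likelihood ratio test and all 12 samples, and 3 with DESeq2. In CMPs, a mean CPM of at least 5 gave 0 genes, the likelihood ratio test 308 and DESeq2 351 (2 of the 10). For the difference of differences, the likelihood ratio test gave 10 and DESeq2 29 genes instead of 0. The cause was not tested.

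Leaving out 1 sample gave 0 to 25 genes in F1-L vs F1-P LSK (0 of the 10 throughout), 0 to 48 in B6-O vs B6-Y (0 to 1 of the 10), 927 to 2229 in F1-P vs B6-Y (0 to 2), 448 to 2285 in F1-L vs B6-O (0 to 1), 0 to 434 in CMPs (0 to 3) and 0 to 1 for the difference of differences (0 of the 10 throughout). The highest counts came without F1-P replicate 3 (25), B6-O replicate 3 (48 and 2285) and CMP F1-P replicate 1 (434), and the lowest without F1-P replicate 2 (0 and 927) and F1-L replicate 3 (448).

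Replicate numbers were shared between groups. Correlations of deviations between same-numbered samples ran from -0.454 to 0.622, and in no comparison were all pairs above 0.1. In F1-P vs B6-Y LSK they were 0.326, 0.322 and 0.068. With 3 samples per group they cannot settle whether same-numbered samples were linked, and the main fits used no pairing. With the replicate block, 0 genes were called in F1-L vs F1-P LSK, B6-O vs B6-Y LSK, CMPs and the difference of differences, 2787 in F1-P vs B6-Y and 1380 in F1-L vs B6-O. In that fit Tlr6 and Tlr9 were called in F1-P vs B6-Y (2 of the 10): Tlr7 lost its call (limma adjusted p = 0.0513) and Tlr9 gained one (0.0409). In F1-L vs B6-O, Tlr6 lost its call (0.0961), which left 0, and 0 were called elsewhere. Depth limits Tlr3 and Tlr13 in CMPs, where single samples held 1 read of either.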
